A study of Arabidopsis thaliana with 12 samples.

Results

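The step from 6 h to 10 h on ß-estradiol was examined in Arabidopsis thaliana root tips that induce the microRNA precursor MIR165A in the stele. Its members are 6 of the series' 12 arrays: the 3 taken at 6 h and the 3 taken at 10 h, chosen by the time in their labels. All 12 were hybridised with RNA from 0.5 mm primary root tips of seedlings 4 days post germination, of which about 200 were pooled for each array. Every seedling, controls included, was in the Col-0 background and carried the pCRE1_XVE::MIR165A transgene, in which the CRE1 promoter drives the estradiol-activated factor XVE in the stele. The 6 h, 10 h and 24 h groups stood on plates with 5 µM ß-estradiol in ethanol for that time, and the group called 0 h stood on plates with ethanol alone. Transfers were staggered so that seedlings were within 4.5 h of the same age when collected. The labels call the 3 samples of a group biological replicates. Both groups of this step carried the transgene and the estradiol, so the comparison sets 2 durations against each other, and induction and time on the plate cannot be told apart in it.

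The microRNA miR165 cleaves the mRNAs of class III HD-ZIP proteins, transcription factors that set the identity of vascular cells in the root. Cells leaving the meristem of a root tip elongate and then differentiate, and some epidermal cells grow a root hair, a single-cell outgrowth that extends at its tip. Expansins loosen the cell wall, xyloglucan endotransglucosylases and cellulases remodel its polysaccharides, and class III peroxidases, secreted enzymes that use hydrogen peroxide, can loosen or stiffen it. In a piece of whole tissue, fewer cells of a type and less RNA per cell cannot be told apart.

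The arrays' median log2 signals lay between 6.06 and 6.13 at 6 h and 10 h. Pairs of arrays correlated at 0.9957 to 0.9978 within these 2 groups and at 0.9923 to 0.9967 across them. The median SD between the 3 arrays of a group was 0.101 at 6 h and 0.0952 at 10 h on the log2 scale. The actin control's 3′ minus 5′ signal, a sign of RNA quality, was 2.72 ± 0.20 (SD, n = 3) at 6 h and 2.69 ± 0.11 (SD, n = 3) at 10 h, and an exact two-sided permutation test gave p = 1.0. The dividing tissue expected of a tip was measured through 5 cell division genes, whose mean signal per array was 8.12 to 8.31 at 6 h and 8.06 to 8.22 at 10 h. The 3 leaf photosynthesis genes averaged 5.20 to 5.25 at 6 h and 5.15 to 5.33 at 10 h, and no root cap marker had a named probe set.

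Between 6 h and 10 h the change was mainly a rise. The 12 largest rises among named genes included 5 root hair genes, beside a microtubule-associated protein gene and genes of several other enzymes. AT1G30870, a class III peroxidase gene of root hair cells, rose 5.93-fold, the cellulase gene GH9C1 3.76-fold and the root hair expansin gene EXPA7 3.36-fold. Of 22746 probe sets, 267 rose and 16 fell at an adjusted p under 0.05 in limma, which is 1.17% higher and 0.0703% lower, or 1.24% in either direction. Of these, 126 rising and 4 falling probe sets carry a single gene name, and 141 and 12 do not. A total of 92 rose at least 2-fold and 1 fell at least 2-fold. At an unadjusted p under 0.05 the split was far more even, with 1472 higher (6.47%) and 1212 lower (5.33%).

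The median change of the 267 that rose was 0.80 on the log2 scale, from 0.36 to 2.68, and that of the 16 that fell was -0.45, from -0.33 to -1.59. Over all probe sets the median difference was -0.015. In all 267 and all 16 the 3 arrays at 10 h lay outside the range of the 3 at 6 h; over all probe sets this held for 10.1% above and 11.0% below. By mean signal over the 12 arrays, rises were rarest among the dimmest 5687 probe sets (20, 0.352%) and most frequent among the 5686 above these (123, 2.16%). In the brighter bins of the same size 70 (1.23%) and 54 (0.95%) rose. The count depended on single arrays. It was 86, 89 and 433 when 6 h replicates 1, 2 and 3 were left out in turn, and 96, 184 and 64 when 10 h replicates 1, 2 and 3 were. It was 469 without the third 24 h array, which enters through the shared estimate of the spread.

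**Figure D1:**
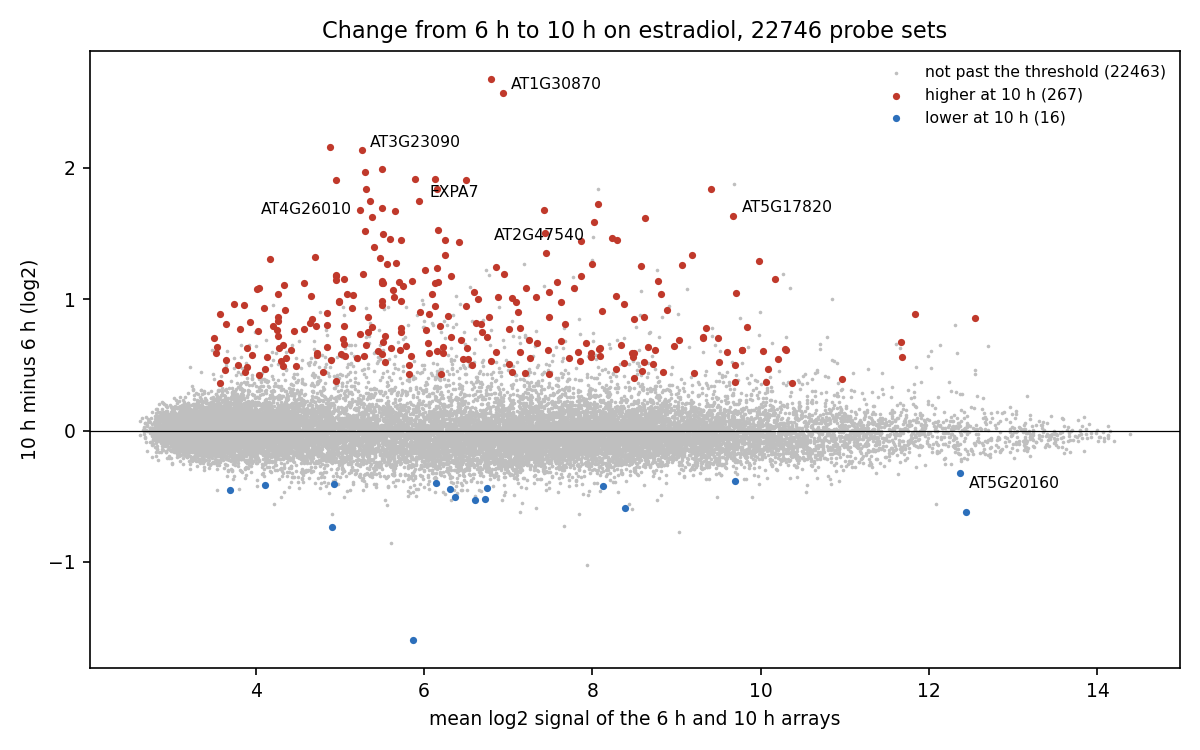
Difference of group means (10 h minus 6 h, log2) against the mean log2 signal of the 6 arrays, for 22746 probe sets; red points rose, blue points fell and grey points did not pass limma's adjusted p of 0.05. The 267 red points reach 2.68 and outnumber the 16 blue ones, which lie at or below -0.33.

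Of 7 measured root hair genes, from a list of 27 loci, 6 rose and 0 fell (85.7%, beside 1.17% of all probe sets). The list was written with earlier results of these data known, so this share is not independent support. The list's median change was 1.75, from 0.18 to 2.57. AT1G30870 read 5.37, 5.71 and 5.87 on the 6 h arrays and 8.08, 8.04 and 8.53 on the 10 h arrays. The lowest 10 h array thus lay more than 2 log2 units above the highest 6 h array. The difference was 2.57 (SE 0.28, limma adjusted p = 0.000992).

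AT3G49960, a second peroxidase gene of root hair cells, read 4.13, 4.41 and 4.64 at 6 h and 6.15, 6.24 and 6.31 at 10 h. It rose by 1.84 (SE 0.19, limma adjusted p = 0.000642). The third, AT4G26010, read 4.41, 4.26 and 4.54 at 6 h and 5.81, 6.07 and 6.37 at 10 h, a rise of 1.68 (SE 0.19, limma adjusted p = 0.00112). All 3 peroxidase genes were thus dim at 6 h, with means below the median signal of all probe sets, and their 10 h arrays did not overlap the 6 h arrays.

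EXPA7 and EXPA18 encode the expansins of growing root hairs. EXPA7 read 4.87, 5.19 and 5.16 at 6 h and 6.62, 6.82 and 7.02 at 10 h, and rose by 1.75 (SE 0.26, limma adjusted p = 0.00493). EXPA18 read 4.84, 4.79 and 4.84 at 6 h and 6.04, 6.07 and 6.30 at 10 h, and rose by 1.31 (SE 0.20, limma adjusted p = 0.00573). For both, the arrays of a time point lay close together beside the gap between the times.

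GH9C1, an endoglucanase gene expressed in root hairs, read 3.64, 4.07 and 4.29 at 6 h and 6.05, 5.49 and 6.19 at 10 h. Its rise of 1.91 (SE 0.35, limma adjusted p = 0.0168) was less certain: leaving out 6 h replicates 1 and 2 in turn gave an adjusted p of 0.106 and 0.0722, and leaving out 10 h replicates 1 and 3 gave 0.0917 and 0.103. XTH26, a xyloglucan endotransglucosylase of root hairs, read 3.55, 3.49 and 3.51 at 6 h and 3.52, 4.00 and 3.58 at 10 h, groups that overlap. Its difference was 0.18 (95% interval -0.09 to 0.45, limma adjusted p = 0.647).

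Averaged over the 7 root hair genes, the arrays lay at 4.40 to 4.69 at 6 h and at 6.04 to 6.33 at 10 h. At 0 h they lay at 4.16 to 4.66, and at 24 h at 4.43 to 5.40. At 24 h the third replicate stood above the other two in 6 of the 7 genes, and AT1G30870 there read 5.50, 5.87 and 6.88. TRY, a MYB-related repressor of hair formation in the shoot epidermis and the only measured gene of the epidermal patterning list, differed by -0.14 (95% interval -0.35 to 0.07, limma adjusted p = 0.638).

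**Figure D2:**
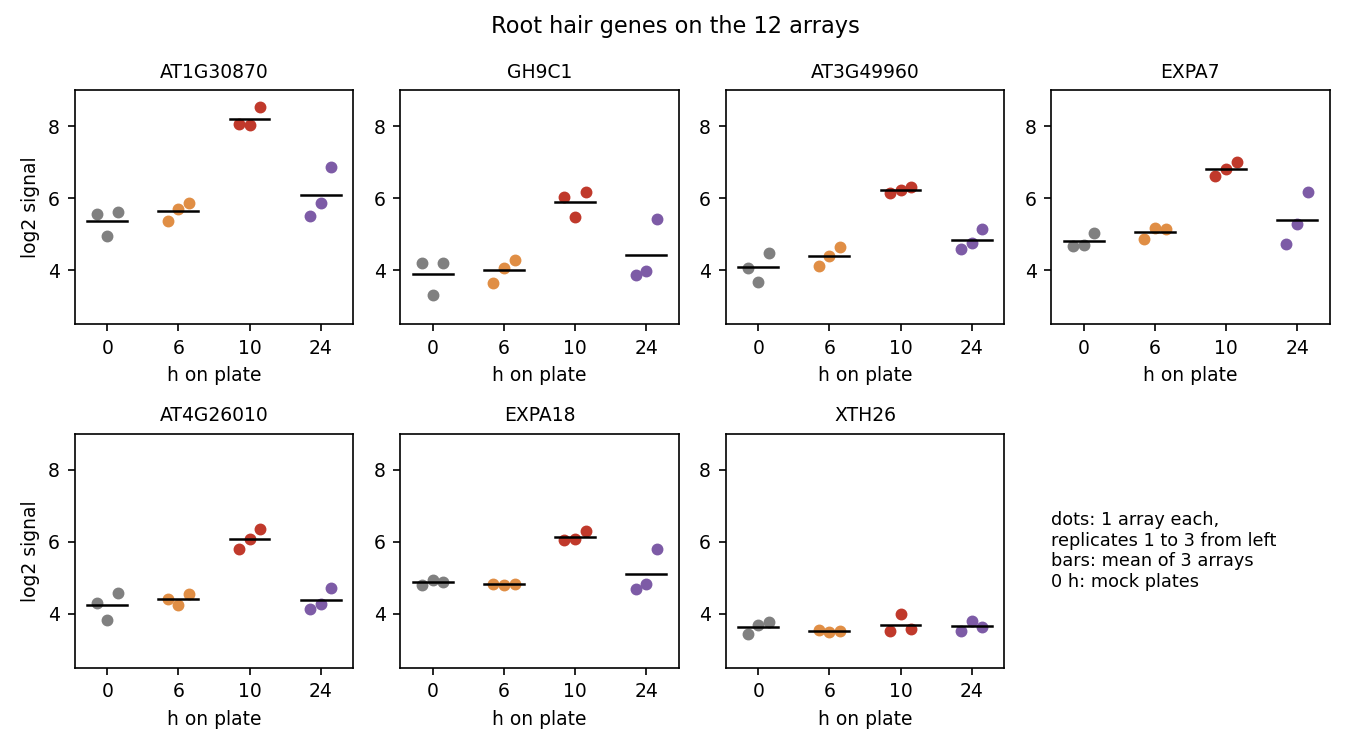
Log2 signal of the 7 measured root hair genes on all 12 arrays by hours on the plate; each dot is 1 array, each bar the mean of 3. In all panels but XTH26 the 3 dots at 10 h lie above all dots at 6 h, and at 24 h they spread, with AT1G30870 at 5.50 to 6.88.

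The other large rises were in genes of varied enzymes and of the cytoskeleton. AT3G23090 (WDL3), a microtubule-associated protein gene, read 3.57, 4.19 and 4.82 at 6 h and 6.29, 5.92 and 6.78 at 10 h, and rose by 2.13 (SE 0.36, limma adjusted p = 0.00924). AT1G19900, a glyoxal oxidase-related gene, read 3.79, 4.36 and 4.79 at 6 h and 6.41, 5.92 and 6.52 at 10 h, and rose by 1.97 (SE 0.30, limma adjusted p = 0.00573). In both, 6 h replicate 1 was the lowest of the 6 arrays and 10 h replicate 3 the highest. For AT3G23090 the adjusted p was 0.0625 without the first of these arrays, 0.0685 without the second and 0.0506 without 10 h replicate 1.

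AT5G01210, an acyltransferase gene of the HXXXD family, read 4.08, 4.96 and 5.43 at 6 h and 6.60, 6.48 and 6.40 at 10 h, and rose by 1.67 (SE 0.26, limma adjusted p = 0.00573). AT2G45750, a methyltransferase gene, read 7.29, 7.89 and 8.26 at 6 h and 9.51, 9.34 and 9.45 at 10 h, and rose by 1.62 (SE 0.21, limma adjusted p = 0.00258). AT2G47540, of the Pollen Ole e 1 and extensin family, read 6.43, 7.46 and 7.76 at 6 h and 8.90, 8.69 and 8.84 at 10 h, and rose by 1.59 (SE 0.29, limma adjusted p = 0.0144). In these 3 genes the 10 h arrays lay close together, while the 6 h arrays spread widely below them, with replicate 1 the lowest and replicate 3 the highest. The adjusted p of AT2G47540 was 0.0786 and 0.0798 when 10 h replicates 1 and 3 were left out in turn. AT5G55050, a GDSL lipase gene, rose by 1.75 (SE 0.28, limma adjusted p = 0.00744), with an adjusted p of 0.0526 without 6 h replicate 1 and 0.0527 without 10 h replicate 3.

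Among class III peroxidases, 9 of 54 measured genes rose and 0 fell (16.7%, beside 1.17% of all probe sets). These include AT1G30870, AT3G49960 and AT4G26010, which the root hair list also counts. Like that list, this list and those below were written with earlier results of these data known. Their shares are not independent support either. The family's median change was 0.06, and 37 of 54 differences were positive, beside 10364 of 22746 over all probe sets. AT5G17820, the brightest of those described here, read 7.97, 8.99 and 9.62 at 6 h and 10.52, 10.31 and 10.65 at 10 h. It rose by 1.63 (SE 0.36, limma adjusted p = 0.0427) and kept that call only while every 6 h and 10 h array was in the fit except 6 h replicate 3: the adjusted p was 0.19 and 0.127 without 6 h replicates 1 and 2, and 0.158, 0.0936 and 0.177 without 10 h replicates 1, 2 and 3. Leaving out the second 0 h or the second 24 h array also ended it (0.0678 and 0.0641).

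AT5G64100 rose by 1.26 (limma adjusted p = 0.022) and AT5G66390, a peroxidase gene of lignifying tissue and the only measured gene of the xylem list, by 1.08 (limma adjusted p = 0.0292). AT5G66390 read 3.51, 3.42 and 3.50 at 6 h and 4.18, 4.36 and 5.14 at 10 h, so its 10 h replicate 3 stood apart. Without that array its adjusted p was 0.113. Leaving out 6 h replicates 1, 2 and 3 in turn gave 0.121, 0.127 and 0.0513, and leaving out 10 h replicate 2 gave 0.0515. For AT5G64100 the adjusted p was 0.0999 without 6 h replicate 1 and 0.0902, 0.0774 and 0.106 without 10 h replicates 1, 2 and 3. AT2G39040, AT5G15180 and AT4G16270 rose by 0.96, 0.95 and 0.63. The number of peroxidase genes that rose was 3 without 6 h replicate 1 or 10 h replicate 3, and 5 without 6 h replicate 2, 10 h replicate 1 or 10 h replicate 2. AT3G01190, with a difference of 0.81 (limma adjusted p = 0.182), and AT1G71695, with -0.38 (limma adjusted p = 0.423), did not pass.

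Of 19 measured expansins 4 rose and 0 fell (21.1%, beside 1.17% of all probe sets), with a median of 0.05. Beside the root hair pair, the expansin-like gene EXLA2 and the ß-expansin gene EXPB1 rose by 0.53 (SE 0.10, limma adjusted p = 0.0175) and 0.50 (limma adjusted p = 0.0188). EXLA2 read 6.52, 6.48 and 6.61 at 6 h and 7.15, 6.93 and 7.11 at 10 h. Its 0 h mean was 7.62 and its 24 h mean 7.73, so the 10 h arrays lay between the low 6 h arrays and the other groups. Leaving out 6 h replicate 1 or 2 or 10 h replicate 1 or 3 ended both calls, which leaves 2 expansins: in that order the adjusted p was 0.0875, 0.102, 0.0987 and 0.103 for EXLA2 and 0.0999, 0.117, 0.103 and 0.109 for EXPB1. EXPA8 differed by 0.76 (limma adjusted p = 0.191) and EXPA16 by -0.35 (limma adjusted p = 0.0778).

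Of 10 xyloglucan endotransglucosylases 2 rose (20%), XTH18 by 0.91 (limma adjusted p = 0.022) and XTH19 by 0.60 (limma adjusted p = 0.0146), and the median was 0.18. Of 15 GH9 cellulases 1 rose (6.67%), GH9C1, with a median of 0.12 and 13 positive differences. Of 24 probe sets for 23 trichome birefringence-like (TBL) genes, which encode acetyltransferases of wall polysaccharides, 3 rose (12.5%), and 20 of 24 differences were positive. TBL38 rose by 1.34 (limma adjusted p = 0.02), TBL21 by 1.09 (limma adjusted p = 0.0149) and TBL19 by 0.59 (limma adjusted p = 0.0348). Over all probe sets 1.17% rose and 10364 of 22746 differences were positive. The counts of these 3 lists rested on single arrays. With 1 array left out they were 0 to 3 for the XTH genes, 0 or 1 for the cellulases and 0 to 6 for the TBL genes. All 3 counts fell on leaving out 6 h replicate 1 or 2 or 10 h replicate 1 or 3, the XTH and TBL counts were also 1 each without 10 h replicate 2, and the TBL count was 6 without 24 h replicate 3.

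Of 11 RALF genes, which encode small signal peptides of the wall, RALFL27 alone rose (9.09%, beside 1.17% of all probe sets). It went from 6.82 ± 0.39 (SD, n = 3) at 6 h to 7.84 ± 0.18 (SD, n = 3) at 10 h, with no overlap. Its rise was 1.02 (SE 0.18, limma adjusted p = 0.0141), and the adjusted p was 0.0911 and 0.0872 on leaving out 6 h replicates 1 and 2 and 0.0756 and 0.0963 on leaving out 10 h replicates 1 and 3. The RALF count was 2 without 6 h replicate 3 and 3 without 24 h replicate 3. RALFL33 and RALFL22 differed by 0.60 (limma adjusted p = 0.0666) and 0.52 (limma adjusted p = 0.0766). Among 8 cellulose synthase and like genes 0 passed, with 4 higher at an unadjusted p under 0.05, beside 6.47% of all probe sets. CSLD2, which is needed for root hair walls, differed by 0.35 (limma adjusted p = 0.141). Among the 6 pectin methylesterases on the list 0 passed. The list was matched by gene name and can miss members of the family. At an unadjusted p under 0.05, 1 of the 6 was higher, ATPMEPCRD, with 0.60 (limma adjusted p = 0.0632).

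Genes of secondary metabolism and detoxification moved in small numbers. Of 51 UDP-glycosyltransferases 2 rose (3.92%, beside 1.17% of all probe sets). UGT84A1, which glucosylates hydroxycinnamic acids, rose by 1.45 (SE 0.29, limma adjusted p = 0.0221), and GT72B1 by 1.24 (SE 0.22, limma adjusted p = 0.0145). UGT84A1 read 6.06, 5.57 and 4.96 at 6 h and 7.15, 6.98 and 6.82 at 10 h, so that replicate 1 was the highest and replicate 3 the lowest at both times, without overlap between them. Both calls ended on leaving out 6 h replicate 2 or 10 h replicate 1 or 3, where the count was 0: in that order the adjusted p was 0.0946, 0.117 and 0.0836 for UGT84A1 and 0.0867, 0.0767 and 0.0963 for GT72B1. The UGT84A1 call also ended without 6 h replicate 3 (0.055) or 10 h replicate 2 (0.0726), and the GT72B1 call without 6 h replicate 1 (0.0867). The count was 1 without 6 h replicate 1 or 10 h replicate 2, and 3 without 6 h replicate 3. Of 14 glutathione transferases 1 rose (7.14%), GSTU28, by 1.46 (limma adjusted p = 0.0406), a call that ended without any 1 of 7 arrays, with adjusted p of 0.0588 to 0.19. Of 23 cytochromes P450 CYP71B34 alone rose (4.35%), by 0.64 (SE 0.09, limma adjusted p = 0.00491), from a dim 3.09, 3.22 and 3.34 to 3.97, 3.81 and 3.79, and without 6 h replicate 3 there were 2.

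PHV, the 1 class III HD-ZIP gene with a named probe set and a target of miR165, read 6.70, 6.80 and 6.70 at 6 h and 6.43, 6.47 and 6.68 at 10 h. The groups do not overlap, but 10 h replicate 3 lay just below the 6 h arrays. Over all probe sets, 11.0% had all 10 h arrays below all 6 h arrays in this way. The difference was -0.21 (95% interval -0.42 to 0.01, limma adjusted p = 0.447), and an exact two-sided permutation test gave p = 0.1, the smallest that 3 arrays against 3 allow. When arrays were centred on their hybridisation spikes, the difference of PHV was 0.02. Among 7 Aux/IAA genes, repressors of auxin responses, 0 passed and the median was -0.13. At an unadjusted p under 0.05, 2 were higher and 2 lower, beside 6.47% and 5.33% of all probe sets. IAA20, an Aux/IAA gene of the vascular tissue, differed by -0.32 (95% interval -0.52 to -0.12, limma adjusted p = 0.142).

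Of the 5 auxin-conjugating GH3 genes, all with positive differences, 0 passed and 2 were higher at an unadjusted p under 0.05. Over all probe sets 10364 of 22746 differences were positive, and 6.47% were higher at that p. GH3.1 differed by 0.38 (limma adjusted p = 0.213). Of 6 response regulators of cytokinin signalling 0 passed in limma and 0 reached an unadjusted p under 0.05, with a median of -0.07 and RR18 at -0.17 (limma adjusted p = 0.752). LHW and OPS, regulators of vascular and phloem development, differed by -0.20 and 0.01, and BBM and UPB1 of the root meristem list by -0.14 and 0.43. None of these 4 passed, with adjusted p of 0.519 for LHW and 0.438 for UPB1 in limma. GSO1, a receptor kinase gene needed for the Casparian strip of the endodermis, read 5.64, 5.97 and 6.03 at 6 h and 6.62, 6.21 and 6.64 at 10 h. Its difference of 0.61 (95% interval 0.25 to 0.97, limma adjusted p = 0.113) did not pass.

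All 5 cell division genes and all 5 core histone genes had negative differences, of -0.04 to -0.17 and -0.12 to -0.47, and 0 of either list passed in limma. The median of the division genes was -0.10 and that of the histone genes -0.13, beside -0.015 over all probe sets, of which 12382 of 22746 were negative. At an unadjusted p under 0.05, 0 division genes and 1 histone gene were lower, beside 5.33% of all probe sets. That gene was HTR12, the centromeric histone H3, which read 7.92, 7.80 and 7.75 at 6 h and 7.54, 7.23 and 7.29 at 10 h, a difference of -0.47 (SE 0.11, limma adjusted p = 0.0669). Centring the arrays on the hybridisation spikes moved the median of all probe sets to 0.217, and the division gene AUR2, an Aurora kinase, then differed by 0.06 in place of -0.17.

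Of 69 plastid genome genes 0 passed, 48 differences were negative and the median was -0.06. At an unadjusted p under 0.05 only psaJ, a photosystem I subunit gene, differed, by 0.34 (limma adjusted p = 0.0841). Of 7 WRKY transcription factor genes and 11 autophagy genes 0 passed. At an unadjusted p under 0.05, 1 WRKY gene was higher and 2 autophagy genes were lower, beside 6.47% and 5.33% of all probe sets. WRKY6 differed by 0.33 (limma adjusted p = 0.0878) and ATG8G by -0.29 (limma adjusted p = 0.287). COR47, a dehydrin of the clock and cold list, differed by 0.41 (limma adjusted p = 0.16), PDC2, a pyruvate decarboxylase of ethanol fermentation, by -0.11 (limma adjusted p = 0.866) and the iron-response factor BHLH101 by 0.24 (limma adjusted p = 0.335). CLE27, of 6 CLE signal peptides with 0 passing, differed by -0.14 (limma adjusted p = 0.715), and the leaf light-harvesting gene LHCB4.2 by -0.23 (limma adjusted p = 0.435). The ribosomal protein S13 family gene AT1G77750 differed by -0.22 (limma adjusted p = 0.313) and PRP39, a splicing factor gene, by 0.07 (limma adjusted p = 0.809).

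The 4 falls among named genes were each by 0.53 or less on the log2 scale. AT1G76640 (CML39), a calmodulin-like gene, was the 1 of 8 measured genes on the calcium sensor list that passed. It read 6.76, 7.06 and 6.77 at 6 h and 6.42, 6.20 and 6.39 at 10 h, and fell by 0.53 (SE 0.12, limma adjusted p = 0.0422). AT4G01790 fell by 0.52 (SE 0.11, limma adjusted p = 0.0364) and AT5G55210 by 0.44 (SE 0.10, limma adjusted p = 0.0445). AT5G20160, a bright gene of the ribosomal protein L7Ae family, read 12.59, 12.57 and 12.44 at 6 h and 12.15, 12.25 and 12.21 at 10 h, and fell by 0.33 (SE 0.07, limma adjusted p = 0.0482). All 4 calls ended when either 6 h replicate 1 or 2, or any 10 h array, was left out, with adjusted p of 0.0719 to 0.216. They also ended when arrays were centred on the hybridisation spikes, with adjusted p of 0.892 to 0.91. Of 21 alternatives, 9 ended the call on AT1G76640, 8 that on AT4G01790, 13 that on AT5G55210 and 14 that on AT5G20160. Centring each array on its median ended those on AT5G55210 and AT5G20160, with limma adjusted p of 0.0515 and 0.109.

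The largest change in either direction was in probe sets without a gene name. Probe set 250778_at rose from a mean of 5.46 to 8.14, by 2.68 (SE 0.35, limma adjusted p = 0.00258), and 255632_at rose by 2.16 (SE 0.23, limma adjusted p = 0.000992). Probe set 245947_at read 6.90, 6.57 and 6.53 at 6 h and 5.16, 5.11 and 4.96 at 10 h, and fell by 1.59 (SE 0.12, limma adjusted p = 5.82e-05). It was at a mean of 7.31 at 0 h and 3.99 at 24 h, so it went down at each time point and fell by 3.32 from 0 h to 24 h (limma adjusted p = 2.81e-09). Probe set 251869_at fell by 0.73 (limma adjusted p = 0.0065) and stood at 6.28 at 0 h, 4.54 at 10 h and 6.05 at 24 h.

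The levels of the 267 rising probe sets at the other times describe where the step lies in the course. Their median on each array was 5.40, 5.41 and 5.58 at 0 h, 5.39, 5.67 and 5.90 at 6 h, 6.62, 6.49 and 6.80 at 10 h, and 5.88, 5.96 and 6.21 at 24 h. The 24 h mean lay between the 6 h and 10 h means in 226, above the 10 h mean in 23 and at or below the 6 h mean in 18. The 6 h mean lay above the 0 h mean in 189 and was the lowest of the 4 groups in 77. Since these probe sets were taken for high 10 h and low 6 h values, any comparison that uses either group again shares arrays with the choice. Their median SD between arrays was 0.202 at 6 h and 0.129 at 10 h, and over all probe sets it was 0.101 and 0.095.

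The 24 h and 0 h arrays took no part in those differences, so 24 h against 0 h gives a comparison on other arrays. Of the 267 probe sets, 252 (94.4%) were higher at 24 h than at 0 h, where 47.1% of all probe sets were. Their median difference was 0.49. Probe sets on the same arrays are not separate observations: the median of the 267 was 5.39, 5.67 and 5.90 on the 3 arrays at 6 h alone. The test called 54 of them higher (20.2%, beside 0.528% of all probe sets), which is 45.0% of the 120 called higher in that comparison, and 1 lower (0.233% of all). The count was 28, 15 and 32 when 0 h replicates 1, 2 and 3 were left out in turn, and 19 and 34 when 24 h replicates 2 and 3 were. Fitted with separate sets of arrays, 414 probe sets rose from 6 h to 10 h, 389 of them (94.0%) were higher at 24 h than at 0 h, with a median of 0.43, and 16 (3.86%, beside 0.149% of all) were called.

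**Figure D3:**
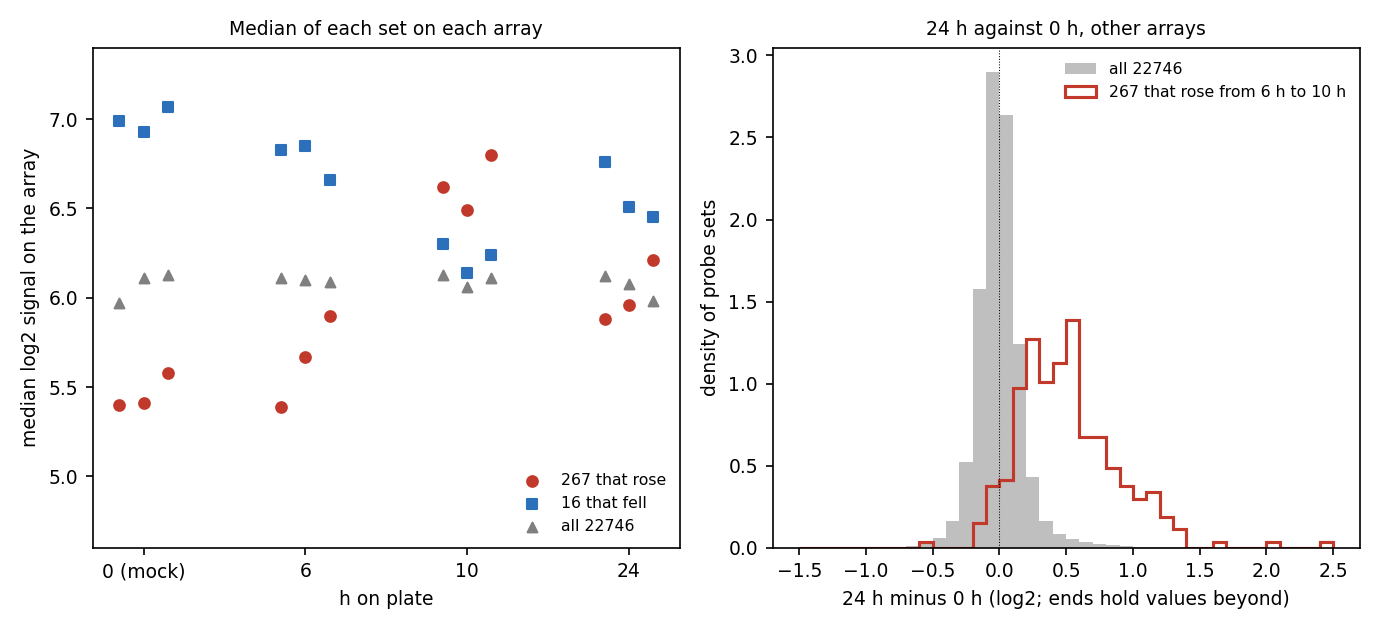
Left, the median log2 signal on each of the 12 arrays of the 267 probe sets that rose, the 16 that fell and all 22746, by hours on the plate. Right, the density of the 24 h minus 0 h difference (log2) for the 267 and for all probe sets; the outline of the 267 is centred near its median of 0.49 and the grey histogram near 0.

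Of the genes described here, AT4G16270 was higher by 0.96 at 24 h against 0 h (limma adjusted p = 0.00439), AT2G45750 by 1.11 (limma adjusted p = 0.0261), RALFL27 by 0.89 (limma adjusted p = 0.0386) and XTH18 by 0.84 (limma adjusted p = 0.048). IAA20 and TRY, which did not pass between 6 h and 10 h, differed by -0.59 (limma adjusted p = 0.00842) and -0.48 (limma adjusted p = 0.0359) at 24 h against 0 h. The 7 root hair genes were not called: their differences ran from 0.75 (limma adjusted p = 0.0939) for AT3G49960 to 0.02 (limma adjusted p = 0.978) for XTH26, with AT1G30870 at 0.71 (limma adjusted p = 0.36). Of the 16 probe sets that fell, the medians on the arrays were 6.99, 6.93 and 7.07 at 0 h, 6.83, 6.85 and 6.66 at 6 h, 6.30, 6.14 and 6.24 at 10 h, and 6.76, 6.51 and 6.45 at 24 h. Their 10 h mean was the lowest of the 4 groups in 15 of 16.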

How the data were processed

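Values were used as deposited: log2 signals of one-colour Affymetrix ATH1 arrays, made with Affymetrix Expression Console and RMA per the submitters' processing notes, which also name limma; versions are not given in the sources used here. RMA draws dim signals together, so folds of dim genes are understated. Of 22810 probe sets, 64 AFFX controls were left out. The platform annotation gives 13513 of the other 22746 a single name, 503 several and 8730 none; 13436 named ones were found in RefSeq (TAIR10.1).

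Comparisons were contrasts in 1 linear model over all 12 arrays (limma 3.58.1 in R 4.3.3, empirical Bayes, Benjamini-Hochberg over 22746 probe sets, threshold 0.05). Single genes were also tested by exact permutation. The members and the 40 gene lists, 34 with a measured member, were chosen with earlier results of these data known. Named genes are the 12 largest rises and 8 largest falls past the threshold without overlap (4 falls existed), up to 5 called members of each list or else the one with the smallest p, and HD-ZIP III genes; other genes named were chosen after their values were seen. On simulated data for 10 h against 6 h over 22746 probe sets, 63% of 100 probe sets changed by 0.5 and 100% of 100 changed by 1 were recovered, with 8 false calls. The simulated noise was normal and independent between probe sets, with the same spread in every group. Deviations that probe sets share on an array were thus not simulated, and the real recovery and false calls can differ. Alternatives covered scaling, dim filters, variance moderation, array weights, the replicate block, a fold minimum, subsets of arrays and each array left out. Promoter motifs were not analysed here.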

Additional observations from a re-analysis of the deposited data

How the results depend on the processing

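No probe set called in this step changed sign under any alternative run. The 283 calls became 483 with the 6 h and 10 h arrays alone, 146 with arrays centred on the hybridisation spikes (which moves the median of all probe sets to 0.217), 166 among probe sets with a mean log2 signal above 6, 1351 with array weights (69.0% of them higher, beside 94.3%) and 64 to 469 with 1 array left out. The 54 probe sets called at 24 h against 0 h became 17 with the arrays of those groups alone, 16 with spike centring, 90 with array weights and 15 to 74 with 1 array left out. The 6 root hair genes became 1 with a mean signal above 6, since the others are dimmer, and 5 or 6 with 1 array left out. The 9 peroxidases became 5 with a mean signal above 6, 5 with trend and robust moderation, 14 with array weights and 3 to 10 with 1 array left out. The 4 expansins became 2 with spike centring, 2 with a mean signal above 6, 2 with a 1.5-fold minimum, and 2 to 4 with 1 array left out. Where not stated otherwise, the cause was not tested.

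Same-numbered 6 h and 10 h arrays deviated together at r = 0.166, -0.1039 and 0.1721, and differently numbered ones at -0.2385 to 0.1149. The labels do not say whether equal numbers mark a shared batch, and this was not tested. The numbers were not taken to pair the arrays in the main fit. With the replicate block there were 481 calls in this step and 105 at 24 h against 0 h. Spike centring turned TRY to 0.09, PHV to 0.02, LHW to 0.03, AUR2 to 0.06, PDC2 to 0.13, LHCB4.2 to 0.00, RR18 to 0.06, CLE27 to 0.09 and AT1G77750 to 0.01, none past the threshold before or after. Of the named genes, AT1G30870, AT1G19900, AT3G49960, EXPA7, AT4G26010, AT5G01210, AT2G45750 and EXPA18 passed under every alternative in which they were tested. Trend and robust moderation ended the calls on GH9C1 (adjusted p = 0.0913 in limma), AT3G23090 (0.0616), AT2G47540 (0.079), AT5G17820 (0.171), AT5G64100 (0.101), AT5G66390 (0.0579), TBL38 (0.053), UGT84A1 (0.08), GSTU28 (0.161) and AT5G55210 (0.0518). Spike centring ended those on EXLA2 (0.807), EXPB1 (0.892), XTH19 (0.518), TBL19 (0.546) and CYP71B34 (0.409), although their differences were then larger, at 0.76, 0.73, 0.83, 0.83 and 0.87. HTR12 passed with the 6 h and 10 h arrays alone (0.0356), as did ATPMEPCRD (0.0241) and GSO1 (0.0471). With 3 arrays a group, changes of 0.5 were recovered in part in the simulation. The planned promoter motif count was not run.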

Other observations

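Other genes that rose from 6 h to 10 h were chosen here after their values were seen. AT2G41970, a receptor-like cytoplasmic kinase gene, rose by 1.44 (SE 0.20, limma adjusted p = 0.00405) from a mean of 5.70 to 7.14. AT1G24620, a calmodulin-like gene, rose by 1.14 (limma adjusted p = 0.00258) and the NADPH oxidase gene AT1G19230 by 0.54 (limma adjusted p = 0.0168). Neither was among the 8 measured genes on the list of NADPH oxidases and calcium sensors. Those 8 were all calmodulin-like genes, of which 0 rose and 1 fell. ACT11, an actin gene, rose by 0.52 (limma adjusted p = 0.0212). The lipid-transfer protein genes AT3G22620 and AT3G22570 rose by 1.45 (limma adjusted p = 0.0267) and 1.27 (limma adjusted p = 0.0175), and the dirigent genes AT4G11210 and AT3G13650 by 1.14 (limma adjusted p = 0.0146) and 0.90 (limma adjusted p = 0.0151).

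The AP2/ERF transcription factor genes LEP and tny rose by 1.13 each (limma adjusted p = 0.0338 and 0.0406). NANA, an aspartyl protease gene, rose by 1.12 (limma adjusted p = 0.0126) and was higher by 1.13 at 24 h against 0 h (limma adjusted p = 0.0165). The cupredoxin family gene AT3G27200 rose by 1.22 from 6 h to 10 h (limma adjusted p = 0.00908) and was higher by 2.01 at 24 h against 0 h (limma adjusted p = 0.000158). AT1G08590 (PXL1), a receptor kinase gene related to PXY of the vascular cambium, rose by 0.55 (limma adjusted p = 0.0239) and was higher by 0.57 at 24 h against 0 h (limma adjusted p = 0.0287). HCT, an acyltransferase of lignin synthesis, rose by 0.51 (limma adjusted p = 0.0175).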
